A study of Mus musculus with 8 samples.

Results

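ISG15 is a small ubiquitin-like protein that cells attach to other proteins after interferon signalling. The genes described here are Isg15 itself, Uba7 (the E1 enzyme that activates ISG15), Ube2l6 (the E2 enzyme that carries it), Herc6 (the main mouse E3 ligase that joins it to its targets) and Usp18 (the protease that removes it). They were chosen by name and matched by Ensembl identifier, which gave 5 of the 54532 genes in the tables. All 5 were among the 14591 genes that passed the filter on low counts.

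RNA-Seq had been run on bone marrow-derived macrophages (BMDMs), macrophages grown from mouse marrow, in 8 libraries that formed 4 groups of 2. The groups were BMDMs of wild-type mice (WT), BMDMs of Trex1-/- mice (Trex1-KO), and Trex1-/- BMDMs given either H151 at 500 nM (Trex1-KO+H151) or SN-011 (Trex1-KO+SN-011), both antagonists of the innate immune adaptor STING. The untreated groups received the solvent DMSO, and every treatment lasted 12 h. Marrow came from mice aged 6 to 8 weeks and was cultured for 7 days with L929 cell supernatant, which the WT cells received as well. For SN-011 a dose is not among the labels, and by the methods of the study its concentration was that of H151. By the methods of the study, all mice had a C57BL/6J background. WT mice were purchased, and Trex1-/- mice were offspring of heterozygous parents, so genotype and origin of the mice cannot be told apart. The Trex1-/- mice lacked Trex1 in all their cells, so the marrow precursors lacked it before culture as well. The study describes the replicates as independent experiments. The labels do not say whether the 2 libraries of a group came from separate mice, so the p-values measure the spread between these libraries only.

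Ubiquitin-like modifiers are passed along a chain in which an E1 enzyme activates the modifier, an E2 enzyme carries it and an E3 ligase transfers it to a lysine of the target protein. ISG15 uses a chain of its own, and interferon induces the modifier together with the chain, including the protease that reverses the reaction. USP18 is also known as a brake on signalling from the type I interferon receptor, through a role that does not need its protease activity. TREX1 degrades DNA in the cytosol, where DNA otherwise activates cGAS and, through it, STING and the type I interferon response.

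Library totals ran from 11845470 to 17284863 counts. Trex1 was listed at 0 counts in all 8 libraries, WT included, so the knockout could not be checked from its own transcript and the genotype rests on the labels. Of 1228 annotated genes whose exons lie wholly within exons of other genes, 31 had any count, against 43.9% of the genes that share no exon bases. The libraries carried the macrophage markers throughout, with a summed level of the 8 markers between 30050 and 32320 CPM (counts relative to library size, scaled by the trimmed mean of M values), and none of the 8 was at 0. That sum was mostly Lyz2, at 20271 to 23047 CPM. Adgre1, Cd68 and Fcgr1 were called higher in Trex1-KO, by at most 1.14 on the log2 scale (Fcgr1), and Fcgr1 was lower with H151 (-0.50) and with SN-011 (-0.49), a change whose part in the results was not tested. Granulocyte and stromal markers differed between genotypes, with 5 of 8 granulocyte markers tested and all 5 higher in Trex1-KO (summed level 8.66 to 9.63 CPM in WT, and from 64.4 to 84.8 CPM in Trex1-KO) and 4 of 5 tested stromal markers lower (2067 to 2262 CPM in WT, and from 848.1 to 1045 CPM in Trex1-KO). Of 6 T cell markers Cd4 alone was tested, and it was lower in Trex1-KO (summed level 33.4 to 34.4 CPM in WT, and from 20.4 to 21.9 CPM in Trex1-KO). Of 6 dendritic cell markers 2 were tested, of which Xcr1 was higher in Trex1-KO (log2 fold change 2.88) and Zbtb46 stood at -1.32 and was not called (adjusted p = 0.0951 by edgeR). The summed level of the 6 overlapped between the genotypes (1.49 to 2.35 CPM in WT, and from 1.71 to 1.88 CPM in Trex1-KO), and Ccr7 and Cd209a were at 0 in all 8 libraries. Sums of other markers were low and higher in Trex1-KO. B cell markers had 2.28 to 3.25 CPM in WT and 3.77 to 3.95 CPM in Trex1-KO. NK cell markers had 0.135 to 0.147 and 0.452 to 0.79 CPM, and erythroid markers 0.809 to 0.948 and 1.28 to 1.91 CPM. No NK cell marker passed the filter, and no tested B cell or erythroid marker was called. None of the tested granulocyte, stromal, T cell and dendritic cell markers was called between Trex1-KO and either antagonist. Against WT, the same 5 granulocyte markers were higher and the same 4 stromal markers lower with each antagonist as well, as were Cd68, Fcgr1 and Xcr1 higher and Cd4 lower. In bulk RNA, fewer cells of a type and less RNA per cell cannot be told apart.

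The promoters are shown because the members moved together. The DNA sequences are from RefSeq (build GRCm38.p6), run 5′ to 3′ on the strand of the gene, and end at the base before the annotated start. Capitals mark matches to the core of the interferon-stimulated response element, searched as 2 copies of GAAA with 2 bases of any kind between, or to the shorter IRF site, AANNGAAA, on either strand. Each core match also holds the shorter site, so the searches are not independent. RefSeq promoters were found for 4 of the 5 members, Usp18 being the other, and for Uba7 only 30 bases are printed, since annotated exons begin just upstream of them.
Isg15, chr4:156200819-156200948, minus strand: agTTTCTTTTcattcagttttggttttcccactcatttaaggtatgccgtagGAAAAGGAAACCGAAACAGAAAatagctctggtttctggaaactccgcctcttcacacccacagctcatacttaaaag
Uba7, chr9:107975537-107975566, plus strand: tagTTTCACTTttggtttcctgaaatcata
Ube2l6, chr2:84798698-84798827, plus strand: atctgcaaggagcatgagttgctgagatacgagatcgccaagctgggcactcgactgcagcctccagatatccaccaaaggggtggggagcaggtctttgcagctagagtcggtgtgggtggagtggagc
Herc6, chr6:57580862-57580991, plus strand: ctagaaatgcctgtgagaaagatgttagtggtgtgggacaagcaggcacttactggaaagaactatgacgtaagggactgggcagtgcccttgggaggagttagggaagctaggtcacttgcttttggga

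In the full windows, 250 bases before to 50 after each start, the core matched in Isg15 alone among the 4 members. Its 3 overlapping matches covered the bases from -78 to -57, counted from the start site. The core was present in 3.44% of all 32851 promoters of that length, and in a promoter of 3.99% of the 27025 genes that had one. The shorter site matched in Isg15 and Uba7, and in 23.9% of all promoters or 26.7% of those genes. The STAT motif TTCNNNGAA matched in none of the 4 and in 8.3% of all promoters or 9.55% of those genes. Beside them, counted by gene, the core was in 5 of 6 genes of the IFIT family and in 4 of 6 genes with a promoter of the OAS family. Both are classical interferon-induced families. Ube2l6 and Herc6 held none of these letters in their windows, which says nothing on whether a factor acts on them.

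The first comparison asked what loss of Trex1 does to the pathway at rest. All 5 genes rose in Trex1-KO BMDMs, from 1.63-fold for Uba7 to 6.19-fold for Usp18. Of all tested genes, 16.4% were called in this comparison at an edgeR false discovery rate (FDR) of 0.05, and 9.27% were called higher. The members' median log2 fold change was 1.58, where the median over all tested genes was -0.002.

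Isg15 (ENSMUSG00000035692, chr4:156199424-156200818 of GRCm38, minus strand), the modifier, stood at 23.2 and 14.96 CPM in WT, and at 69.9 and 83.1 CPM in Trex1-KO. Both Trex1-KO libraries lay above both WT libraries, a separation seen, in one direction or the other, for 56.1% of all tested genes, although the WT pair itself differed by 0.63 on the log2 scale. The log2 fold change was 2.01 ± 0.24 (SE), a 4.03-fold rise with an adjusted p of 5.45e-05 by edgeR. A processed pseudogene, AC151275.1, matches 482 of the 756 bases of the transcript with 95.2% identity, and it held 0 to 7 counts a library beside 221 to 1261 for Isg15.

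Uba7 (ENSMUSG00000032596, chr9:107975505-107984060), the E1 enzyme gene, had 130.69 and 129.68 CPM in WT, with 217.5 and 206.62 CPM in Trex1-KO. The pairs were tight and well apart, and the log2 fold change of 0.70 ± 0.06 (adjusted p = 3.79e-06 by edgeR) was the smallest of the 5. Uba7 lies 1.07 Mb from Trex1 on the same chromosome. Of 93 tested genes within 2 Mb of Trex1, 10 were higher and 5 lower in Trex1-KO, that is 16.1% called against 16.4% of all genes. Uba7 shares 233 exon bases with Gm20661, which held 10 to 20 counts a library.

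Ube2l6 (ENSMUSG00000027078, chr2:84798828-84810335), the E2 enzyme gene, was measured at 38.4 and 35.2 CPM in WT, rising to 99.9 and 102.88 CPM in Trex1-KO. The groups were again separate, with a log2 fold change of 1.46 ± 0.10 and an adjusted p of 1.86e-07 by edgeR. Stretches of its 1560-base transcript also match other expressed genes, among them D10Wsu102e (498 bases at 90.6% identity, 443 to 608 counts a library), with 290 bases in Smchd1 (92.1%, 1253 to 1829 counts) and 260 in Ift46 (96.5%, 439 to 666 counts), beside 520 to 1562 counts for Ube2l6, so its level is less certain where reads fell there. Herc6 (ENSMUSG00000029798, chr6:57581000-57664632), the ligase gene, had 31.2 and 23.4 CPM in WT, below the 79.7 and 83.3 CPM in Trex1-KO. Its lowest Trex1-KO library lay above its highest WT library, and the log2 fold change was 1.58 ± 0.14 (adjusted p = 2.52e-06 by edgeR). Herc6 shares 1269 exon bases with Gm45193, which was at 0 counts in every library.

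Usp18 (ENSMUSG00000030107, chr6:121245906-121270917), the deconjugase gene, went from 17.1 and 14.3 CPM in WT to 97.5 and 96.5 CPM in Trex1-KO. The groups were far apart, and the Trex1-KO libraries were nearly equal. The log2 fold change was 2.63 ± 0.16 (adjusted p = 5.72e-08 by edgeR), and counted from the top Usp18 ranked 86 among all 14591 tested genes, ahead of Isg15 at 154, Herc6 at 233, Ube2l6 at 282 and Uba7 at 840. It overlaps 124 bases of Gm44148 on the other strand, which held 0 to 3 counts. The granulocyte, stromal and other markers given above moved with the same contrast, and their part in these rises was not tested. With library totals in place of the trimmed scaling, the median over all genes in this contrast moved to -0.09 and the calls from 1352 higher of 2390 to 946 higher of 2544, while all 5 members were still called higher.

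**Figure D1:**
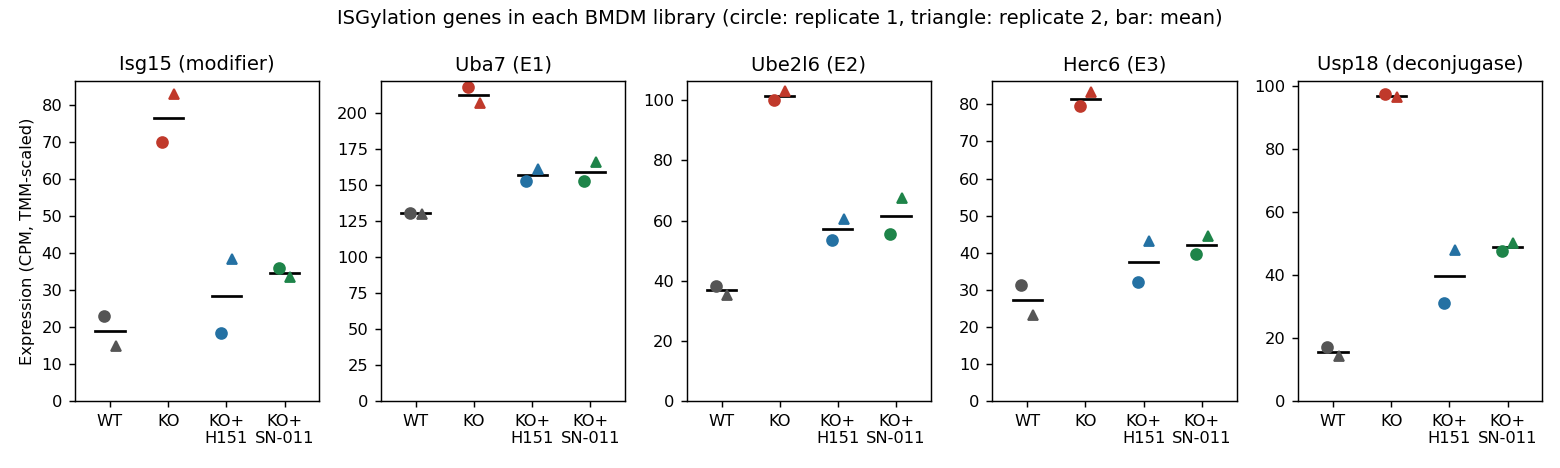
Expression of the 5 genes in CPM (vertical axis, from 0, its own scale in each panel) in the 8 libraries by group; circles are replicate 1, triangles replicate 2 and bars group means. Both Trex1-KO libraries lie above all 6 other libraries in every panel, and the Trex1-KO+H151 pair is widest for Isg15, at 18.6 and 38.3 CPM. The share of all tested genes with this order of libraries was not computed.

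The antagonist comparisons asked how much of these levels remained when STING was blocked in Trex1-/- cells. They share the Trex1-KO libraries, so their values stand side by side and are not independent. The SN-011 libraries carry a separate treatment note and may have been made apart from the rest. In each SN-011 comparison, here and below, any such batch and the compound cannot be told apart. All 5 genes fell with H151, between 1.35-fold for Uba7 and 2.66-fold for Isg15, where 2.23% of all tested genes were called and 1.84% were called lower. All 5 fell with SN-011 as well, between 1.33-fold for Uba7 and 2.20-fold for Isg15, where 2.33% were called and 2.22% were called lower. The members' median log2 fold changes were -1.11 and -0.96, against 0.001 and 0.009 over all tested genes.

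Isg15 had 18.6 and 38.3 CPM with H151 and 35.9 and 33.5 CPM with SN-011, beside 69.9 and 83.1 CPM in Trex1-KO. No treated library reached the Trex1-KO range, as held for each member and both compounds, where the libraries of all tested genes were separate in 35.4% of cases with H151 and 43.4% with SN-011, but the H151 pair spanned the SN-011 pair. The log2 fold changes were -1.41 ± 0.23 with H151 (adjusted p = 0.00373 by edgeR) and -1.14 ± 0.23 with SN-011 (adjusted p = 0.0163). The size with H151 rested on single libraries, at -0.998 without H151 replicate 1, where Usp18 stood at -1.01, and at -2.05 without H151 replicate 2, with the call kept in both. The call with SN-011 depended on single libraries, since without Trex1-KO replicate 2 the adjusted p was 0.0638, without SN-011 replicate 1 it was 0.194 and without SN-011 replicate 2 it was 0.192. DESeq2 gave an adjusted p of 0.166 for the same value, with a log2 fold change of -1.14.

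Uba7 had 152.32 and 161.28 CPM with H151 and 152.43 and 165.65 CPM with SN-011. All 4 values lay between the WT and Trex1-KO ranges. Libraries were separate from those of WT for 52.1% of all tested genes with H151 and 54.4% with SN-011, in either direction. The log2 fold changes were -0.43 ± 0.06 (adjusted p = 0.00143 by edgeR) and -0.42 ± 0.06 (adjusted p = 0.00205), and the call with SN-011 was lost without SN-011 replicate 1 (log2 fold change -0.36, adjusted p = 0.0761).

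Ube2l6 had 53.5 and 60.6 CPM with H151 and 55.5 and 67.6 CPM with SN-011, also between WT and Trex1-KO. Its log2 fold changes were -0.83 ± 0.09 (adjusted p = 0.000164 by edgeR) and -0.73 ± 0.09 (adjusted p = 0.000512). Herc6 had 32.1 and 43.1 CPM with H151 and 39.7 and 44.5 CPM with SN-011. The lower H151 library, at 32.1 CPM, was close to the higher WT library, at 31.2 CPM. The log2 fold changes of Herc6 were -1.11 ± 0.13 (adjusted p = 0.000269 by edgeR) and -0.96 ± 0.13 (adjusted p = 0.00092).

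Usp18 had 31.3 and 48.1 CPM with H151 and 47.6 and 50.2 CPM with SN-011. These were below the Trex1-KO libraries and above both WT libraries, which lay at 17.1 and 14.3 CPM. The libraries of 52.1% (H151) and 54.4% (SN-011) of all tested genes were likewise separate from WT, in either direction. The log2 fold changes were -1.28 ± 0.14 (adjusted p = 0.000116 by edgeR) and -0.99 ± 0.14 (adjusted p = 0.00092). Counted from the bottom of 14591 genes, the ranks with H151 were 68 for Isg15, 95 for Usp18, 140 for Herc6, 294 for Ube2l6 and 869 for Uba7, and with SN-011 they were 141, 213, 225, 421 and 990 in the same order.

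**Figure D2:**
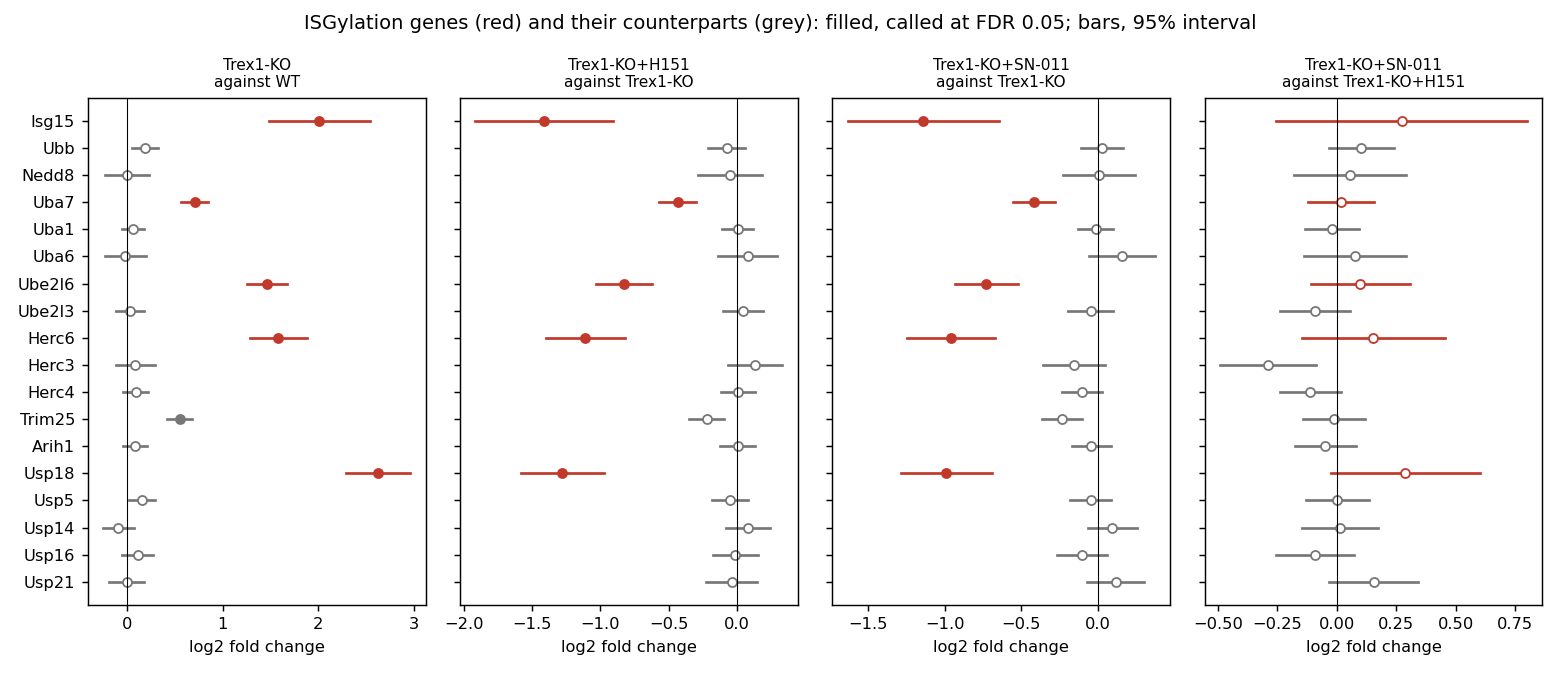
Log2 fold changes (horizontal axes, one scale a panel) of the 5 genes (red) and of counterpart genes of the same biochemical step (grey) in 4 comparisons; bars are 95% intervals and filled points are called at FDR 0.05. The red points are filled in the first 3 panels and open in the last, and Trim25, at 0.55 in the first panel, is the one grey point that is filled.

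The treated Trex1-KO cells were also set beside WT. These 2 comparisons share the WT libraries, and the part of the granulocyte, stromal and other markers that differed from WT in both was not tested. With H151, 3 of 5 members were higher than in WT, against 11.8% of all tested genes called and 6.79% called higher. The 3 were Usp18 (log2 fold change 1.35 ± 0.16, adjusted p = 9.16e-05 by edgeR), Ube2l6 (0.64 ± 0.10, adjusted p = 0.000811) and Uba7 (0.27 ± 0.06, adjusted p = 0.0147). For Herc6 the value was 0.47 ± 0.14 (adjusted p = 0.052), with both treated libraries above both WT libraries as in 52.1% of all genes, in either direction. For Isg15 it was 0.60 ± 0.26 (adjusted p = 0.171), and the libraries of the 2 groups overlapped.

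Single libraries moved these calls. Without H151 replicate 1, Isg15 stood at 1.00 (adjusted p = 0.000656) and Herc6 at 0.65 (adjusted p = 0.00344), so that all 5 were called by edgeR, whereas without H151 replicate 2 Isg15 stood at -0.04. Herc6 stood at 0.68 without WT replicate 1 and at 0.47 without Trex1-KO replicate 2. It stood at 0.26 without WT replicate 2 and at 0.23 without H151 replicate 2. With all 8 libraries it was called by DESeq2 (0.46, adjusted p = 0.0354), by edgeR's exact test (0.47, adjusted p = 0.0194) and by edgeR with no filter beyond 1 count (0.45, adjusted p = 0.000281). Uba7 lost its call without WT replicate 1 (adjusted p = 0.106), WT replicate 2 (0.107) or H151 replicate 2 (0.0853).

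With SN-011, all 5 members were higher than in WT, against 11.7% of all tested genes called and 6.18% called higher. Here too any batch of the SN-011 libraries cannot be told apart from the compound. The log2 fold changes were 1.64 ± 0.16 for Usp18 (adjusted p = 1.45e-05 by edgeR), 0.87 ± 0.25 for Isg15 (adjusted p = 0.0403), 0.73 ± 0.10 for Ube2l6 (adjusted p = 0.000241), 0.62 ± 0.14 for Herc6 (adjusted p = 0.0105) and 0.29 ± 0.06 for Uba7 (adjusted p = 0.0094). Usp18 was thus 3.11-fold above WT with SN-011 and 2.55-fold above it with H151. Only Usp18 and Ube2l6 kept their calls in every refit with 1 library left out. The calls of the other 3 were lost without WT replicate 2 (adjusted p = 0.328 for Isg15, 0.148 for Herc6 and 0.0772 for Uba7) and without SN-011 replicate 2 (0.138, 0.117 and 0.158), that of Isg15 also without SN-011 replicate 1 (0.216) and with DESeq2 (0.268), and that of Uba7 without WT replicate 1 (0.0774).

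The antagonists were then compared with each other, with the caution that the SN-011 libraries carry a separate treatment note and may have been made apart from the rest, so that any such batch and the compound cannot be told apart. None of the 5 members was called between them, where 0.158% of all tested genes (23 genes) were called by edgeR at FDR 0.05 and 1300 had an unadjusted p under 0.05. DESeq2 called none of the 5 either. The 95% interval of the log2 difference, SN-011 minus H151, was -0.25 to 0.80 for Isg15, -0.12 to 0.16 for Uba7, -0.11 to 0.31 for Ube2l6, -0.15 to 0.45 for Herc6 and -0.02 to 0.60 for Usp18. The libraries of the treatments overlapped for each member, and 39.7% of all tested genes were without overlap. The unadjusted p was lowest for Usp18, at 0.0678 by edgeR for a difference of 0.29 ± 0.14. Without H151 replicate 2 the difference was 0.91 for Isg15 and 0.64 for Usp18. Without H151 replicate 1 it was -0.14 for Isg15 and 0.02 for Usp18.

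The H151 pair was uneven for Isg15 and Usp18. Replicate 2 was above replicate 1 for all 5 members, by 1.05 on the log2 scale for Isg15, 0.62 for Usp18, 0.43 for Herc6, 0.18 for Ube2l6 and 0.08 for Uba7, where the median gene differed by 0.152 in that pair. The gap of Isg15 was wider than that of 97.4% of the tested genes. In WT the order was reversed for all 5, with replicate 1 higher by 0.63 for Isg15 and by 0.01 for Uba7. Across the 8 libraries the correlation of log2 CPM between pairs of members lay between 0.917 (Isg15 and Uba7) and 0.988 (Uba7 and Ube2l6), which is a description, since the groups and the uneven pairs are shared by all genes.

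Per length of transcript, levels can be set beside each other between genes. In CPM per kb of the longest coding transcript, WT cells had Uba7 highest, at 40.8 ± 0.22 (SD, n = 2 in each group), then Isg15 at 25.2 ± 7.67 and Ube2l6 at 23.6 ± 1.47, whose libraries overlapped, then Usp18 at 8.87 ± 1.14 and Herc6 at 5.73 ± 1.17. In Trex1-KO, Isg15 was highest, at 101.2 ± 12.3, with Uba7 at 66.4 ± 2.41 and Ube2l6 at 65.0 ± 1.37 overlapping, then Usp18 at 54.8 ± 0.41 and Herc6 at 17.1 ± 0.53.

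In treated cells Uba7 had the highest mean, with libraries that overlapped those of Isg15 with H151 and lay just above them with SN-011. With H151 the means were 49.1 ± 1.98 CPM per kb for Uba7, 37.6 ± 18.5 for Isg15, 36.6 ± 3.22 for Ube2l6, 22.4 ± 6.7 for Usp18 and 7.88 ± 1.63 for Herc6. With SN-011 they were 49.8 ± 2.93, 45.9 ± 2.25, 39.5 ± 5.49, 27.6 ± 1.05 and 8.84 ± 0.71 in the same order. Herc6, the ligase gene, was lowest in all 4 groups under either length. The place of Uba7 depended on the length used, because its annotation holds long transcripts beside the coding one (6692 bases of exon in all against 3195 in the longest coding transcript), and over all exon bases Isg15 had the highest mean in every group (with H151 its libraries, at 24.5 and 50.7 CPM per kb, spanned those of Ube2l6, at 26.8 and 30.4), with Uba7 at 19.5 CPM per kb in WT and 31.7 in Trex1-KO.

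**Figure D3:**
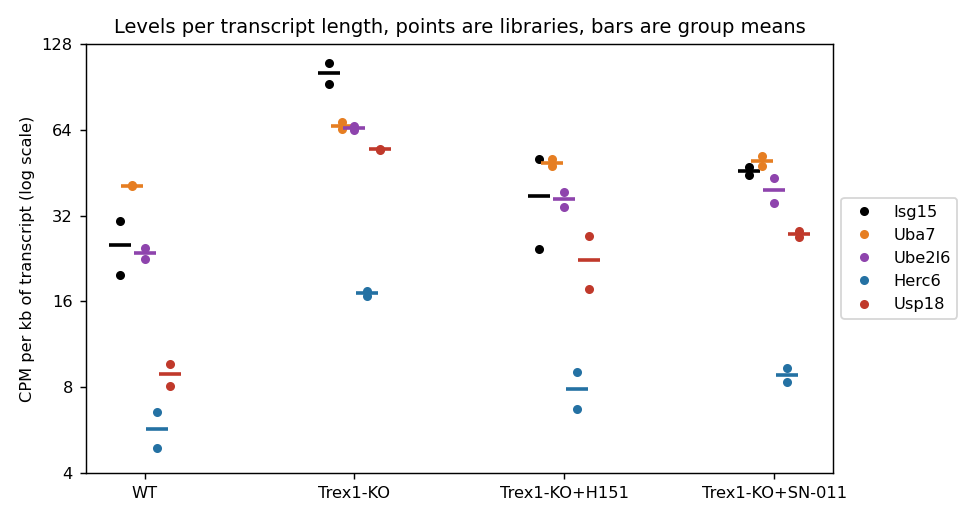
Levels in CPM per kb of the longest coding transcript (vertical axis, log scale) of the 5 genes in each group; points are libraries and bars are group means. Isg15 moves from below Uba7 in WT to the top in Trex1-KO, at 101.2 CPM per kb, and Herc6 is lowest in all 4 groups.

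Levels were also taken relative to the modifier. The log2 ratio of Uba7 to Isg15, per kb, was 0.42 to 1.04 in WT and -0.76 to -0.44 in Trex1-KO. The ratio of Ube2l6 to Isg15 fell too, with -0.31 to 0.19 in WT and -0.74 to -0.53 in Trex1-KO. For Herc6 the ratio was -2.225 to -2.01 in WT and -2.65 to -2.47 in Trex1-KO. The log2 ratio of Usp18 to Isg15 alone went the other way, from -1.66 to -1.30 in WT to -1.01 to -0.75 in Trex1-KO. For each of these ratios the WT and Trex1-KO libraries did not overlap, and the exact two-sided permutation p was 0.333, the smallest that 2 against 2 can give. With the antagonists, the ratio of Usp18 to Isg15 was -0.69 on average with H151 and -0.73 with SN-011, and both pairs overlapped the Trex1-KO pair (mean -0.88). The ratio of Uba7 to Isg15 was 0.48 on average with H151 (libraries at -0.01 and 0.96) and 0.12 with SN-011 (0.01 and 0.23), and neither pair overlapped the Trex1-KO pair (exact two-sided permutation p = 0.333 for each). The Ube2l6 ratio also lay outside the Trex1-KO range with both antagonists, whereas the Herc6 ratio overlapped it with both. These differences do not depend on the length used.

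The nearest relatives of the members in other modifier systems were looked at next. Uba1 and Uba6, the E1 enzymes of ubiquitin, had log2 fold changes of 0.06 ± 0.05 and -0.02 ± 0.10 in Trex1-KO against WT, and neither was called. Ube2l3, the closest relative of Ube2l6, had 0.03 ± 0.07, and Herc3 and Herc4 had 0.08 ± 0.09 and 0.09 ± 0.06. None of these 5 was called with either antagonist. Of the tested genes of each family, 1 of 9 other E1 enzymes, 2 of 28 UBE2 conjugating enzymes, 0 of 4 other HERC genes, 3 of 33 USP proteases and 0 of 13 other ubiquitin-like modifiers were called higher in Trex1-KO and none was called lower, where 9.27% of all tested genes were called higher. The median log2 fold changes of these lists lay between -0.003 and 0.04. Of all of them, Usp25 alone was called between Trex1-KO and an antagonist group, where 2.23% (H151) and 2.33% (SN-011) of all tested genes were called.

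Usp25, a protease that acts on ubiquitin chains in innate signalling, went from 140.32 and 132.52 CPM in WT to 190.82 and 188.83 CPM in Trex1-KO, and had 158.91 and 158.19 CPM with H151 and 160.97 and 162.18 CPM with SN-011. Its treated libraries lay between the other groups. It rose by 0.48 ± 0.06 on the log2 scale in Trex1-KO (adjusted p = 5.63e-05 by edgeR), and its value with H151 was -0.26 ± 0.06 (adjusted p = 0.0323), a call that was lost in each of the 6 refits without a Trex1-KO, H151 or SN-011 library (adjusted p from 0.0740 to 0.175). It was lost as well with total counts alone (0.0626) and with only the 2 groups compared (0.120). With SN-011 the value was -0.23 ± 0.06 (adjusted p = 0.0572 by edgeR), and it was called with no filter beyond 1 count (0.0360), by edgeR's exact test (0.0416), on those 2 groups alone (0.0470) and without either H151 library (0.0432 and 0.0373). The other family calls in Trex1-KO against WT were small, at most 0.28 for Usp12, and each was lost without one or another single library. Atg7 at 0.23, Ube2f and Ube2q1 at 0.22 and 0.21 and Usp9x at 0.20 were also lost under DESeq2.

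Other genes reported to act on ISG15 were counted beside the shares over all tested genes, 16.4% called in Trex1-KO against WT, 2.23% with H151 and 2.33% with SN-011. Of 4 further ligase and E2 genes, Trim25, an E3 ligase for ISG15 and an activator of RIG-I, was the one called in Trex1-KO. It had 427.51 and 466.47 CPM in WT, below the 650.17 and 656.28 CPM in Trex1-KO, a log2 fold change of 0.55 ± 0.06 (adjusted p = 2.36e-05 by edgeR). With H151 it stood at 545.66 and 573.46 CPM and with SN-011 at 534.86 and 576.36 CPM, lower than both Trex1-KO libraries, but the adjusted p was 0.0953 and 0.0692. With every gene of at least 1 count in the fit, both were called (adjusted p = 0.00403 and 0.00195 by edgeR), and the SN-011 value was also called by DESeq2 (adjusted p = 0.0488) and by edgeR on those 2 groups alone (adjusted p = 0.0284). Arih1, another ligase, had 0.08 ± 0.06 in Trex1-KO and was not called. Of 6 other proteases with reported activity on ISG15, none was called in any of the 3 comparisons, so that among the protease genes looked at here Usp18 had the largest change.

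Genes upstream and downstream were counted in the same way. Of 6 genes of the type I interferon receptor complex and of ISGF3, the transcription factor that it activates, 3 rose in Trex1-KO (9.27% of all tested genes were called higher), with a list median of 0.21. Stat2 rose by 1.57 ± 0.07 on the log2 scale and Irf9 by 0.61 ± 0.07. Ifnar2, at 0.24 ± 0.06, lost its call without any one of the 4 WT and Trex1-KO libraries (adjusted p from 0.0532 to 0.101). Ifnar1, Jak1 and Tyk2 were not called. Stat2 fell with both antagonists, by 1.05 ± 0.06 with H151 and by 0.98 ± 0.06 with SN-011, and Irf9 fell with H151 (-0.41 ± 0.07, adjusted p = 0.00266 by edgeR) and had -0.25 ± 0.07 with SN-011 (adjusted p = 0.0788).

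Of 7 genes whose proteins are reported ISG15 substrates, 4 rose in Trex1-KO, against 9.27% of all tested genes called higher, and the same 4 fell with each antagonist, against 1.84% called lower with H151 and 2.22% with SN-011. They were Mx1, an antiviral GTPase (2.15 ± 0.15 in Trex1-KO), the RNA sensors Ddx58 (1.47 ± 0.09) and Ifih1 (1.40 ± 0.10), and Eif2ak2, the kinase PKR (1.15 ± 0.09). The substrates Irf3, Jak1 and Eif4e2 were not called in any of the 3 comparisons. The list median was 1.15 in Trex1-KO and -0.75 and -0.74 with H151 and SN-011. Those called are interferon-induced genes themselves, and Jak1 stands in the list above as well.

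Of the genes for the receptor of secreted ISG15, the integrin LFA-1, Itgb2 rose in Trex1-KO by 0.45 ± 0.06 on the log2 scale and did not pass the test with either antagonist. Itgal had -0.04 ± 0.06 in Trex1-KO, where its libraries overlapped those of WT. It fell with H151 (-0.33 ± 0.06, adjusted p = 0.00462 by edgeR) and with SN-011 (-0.25 ± 0.06, adjusted p = 0.0292). Leaving out Trex1-KO replicate 2 ended the H151 call (adjusted p = 0.0682), and the SN-011 call was lost without any one of the WT, Trex1-KO or SN-011 libraries (adjusted p from 0.0504 to 0.283).

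The IFIT and OAS families were counted beside the ISGylation genes. All 6 IFIT genes, which encode binders of viral RNA, and all 8 OAS genes, which encode oligoadenylate synthetases and their relatives, were called higher in Trex1-KO, against 9.27% of all tested genes. Their median log2 fold changes were 2.42 and 1.88, against 1.58 for the 5 members. With H151 and SN-011 the medians were -1.69 and -1.47 for the IFIT genes, -0.96 and -0.85 for the OAS genes and -1.11 and -0.96 for the members. Ifit1bl2 and Oas1c were those not called with either antagonist, where 1.84% (H151) and 2.22% (SN-011) of all tested genes were called lower. The differences between lists were not tested.

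**Figure D4:**
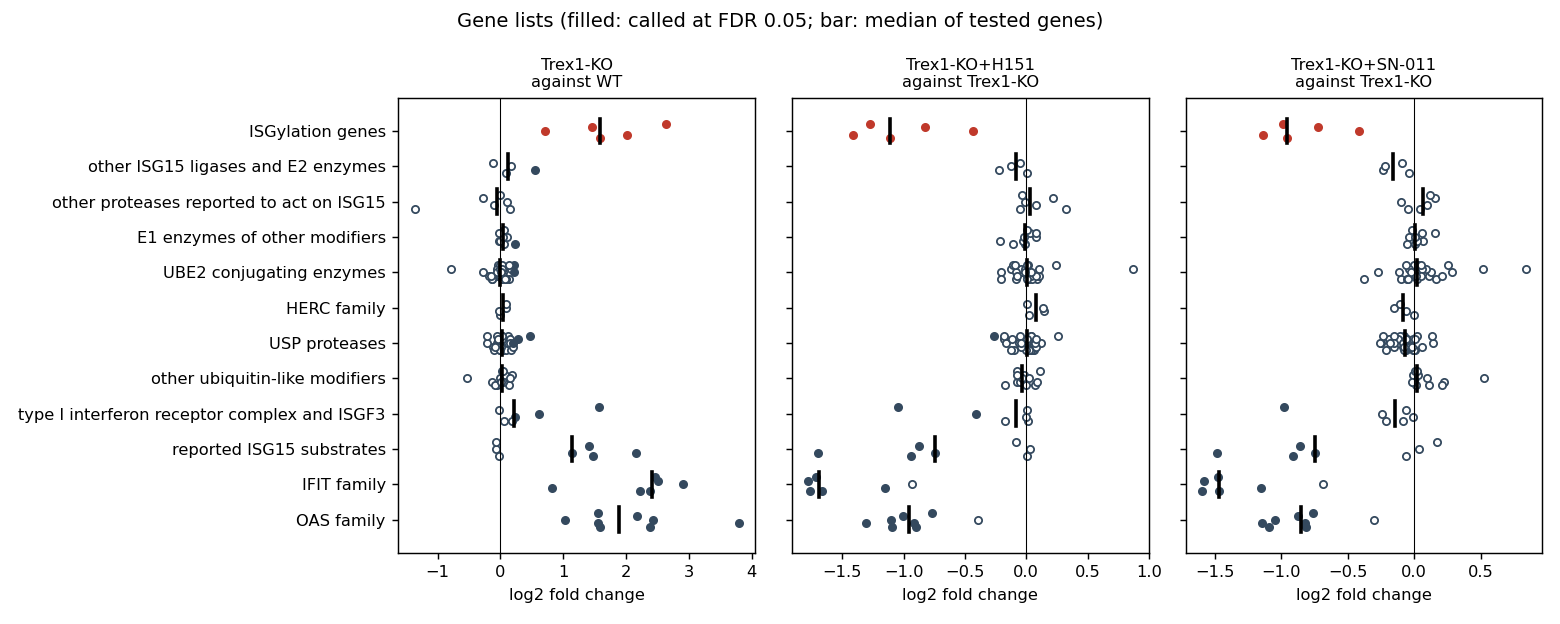
Log2 fold changes (horizontal axes, one scale a panel) of the tested genes of each list, 1 point a gene; filled points are called at FDR 0.05 and bars are list medians. The 5 ISGylation genes (red) are all filled, with medians of 1.58, -1.11 and -0.96, whereas most points of the other modifier families sit open near 0.

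Last, genes with profiles most like the pathway were looked up among 10655 genes, as a description over 8 libraries that share groups and depth. The mean standardised profile of the members was most like H2-T24, a class I-like histocompatibility gene (Pearson's r = 0.998), followed by Dck, Rnf31, Parp9 and Ifi47 (r from 0.995 to 0.998). H2-T24 rose by 1.88 ± 0.13 on the log2 scale in Trex1-KO, with -1.19 ± 0.12 with H151 and -1.02 ± 0.12 with SN-011. Rnf31, a subunit of the linear ubiquitin ligase, changed less, at 0.49 ± 0.07, -0.31 ± 0.07 and -0.26 ± 0.07, the last not called (adjusted p = 0.0945 by edgeR).

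The members differed in their nearest profiles. Isg15 was most like Ifi47, Rtp4 and Psme2b (r from 0.976 to 0.979), Uba7 like Themis2, Mcl1 and Irgm2 (0.994 to 0.997), Ube2l6 like Parp11, Ifi211 and Dck (0.994 to 0.997), Herc6 like Rsad2, Dhx58 and Ifit2 (0.996 to 0.998) and Usp18 like Gm20559, Gm4951 and Sdc3 (0.994 to 0.996). Isg15 had the lowest of these correlations, with the most uneven replicate pairs of the 5 in WT and with H151. Mcl1, a survival gene of the BCL2 family, was the least changed of the genes nearest to a single member, at 0.47 ± 0.05 in Trex1-KO, and Ifit2 the most changed, at 2.51 ± 0.18.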

How the data were processed

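Polyadenylated RNA of 8 mouse BMDM libraries was analysed, in 4 groups of 2 named by the labels. The authors deposited 1 table of raw counts per gene for each library, aligned to mm10, and the submitters' processing notes name HISAT2 and HTSeq, whereas the methods name featureCounts; versions and the strand setting are not given in the sources used here. How reads shared by overlapping genes were counted is not given either, so such genes may be undercounted. Coordinates and lengths are from GENCODE (GRCm38), and promoters from RefSeq.

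edgeR 4.0.16 (R 4.3.3) was fitted once to all 8 libraries: trimmed mean of M values, filterByExpr (minimum count 10, total 15), the quasi-likelihood test and Benjamini-Hochberg adjustment over 14591 genes, with an FDR under 0.05 as a call. The common coefficient of variation between replicates was 6.56%. Standard errors and 95% intervals are those of the fitted log2 fold change. CPM are scaled by the same factors. The script was tested on simulated data. Alternatives were DESeq2 1.42.0, edgeR's exact test, other scalings and filters, the 2 groups alone, a replicate block and each library left out. The members and the gene lists were chosen with earlier results of these data known, and 1 gene of these lists is not reported here. Named were the 5 members, list genes that were called or are close relatives, and the 5 genes (3 for a single member) with the most similar profile at an average log2 CPM of at least 2. Counting error alone limits values near 0.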

Additional observations from a re-analysis of the deposited data

How the results depend on the processing

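Refits with 16 alternatives left all 5 members called in Trex1-KO against WT and in H151 against Trex1-KO. With 1 library left out, the number called ranged from 3 to 5 for SN-011 against Trex1-KO (5 with all libraries), from 2 to 5 for H151 against WT (3), from 2 to 5 for SN-011 against WT (5) and from 0 to 2 for SN-011 against H151 (0). With no filter beyond 1 count, 5 were called for H151 against WT. For Uba7 in that comparison, total counts gave an adjusted p of 0.0553. Between the antagonists Usp18 stayed above 0 in all 16 refits but stood at only 0.02 without H151 replicate 1, so its size rested on that library. The other 4 members changed sign in some refits. Without SN-011 replicate 2, Uba7 and Ube2l6 stood at -0.04 each, and without H151 replicate 1, Isg15, Herc6 and Uba7 stood at -0.14, -0.04 and -0.02. In each refit that leaves a group with 1 library, that library is assumed to vary like the others.

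The labels number the replicates alike in every group without saying that a number marks a shared source. Correlations of same-numbered deviations lay between -0.02 and 0.19, so the replicate block was an alternative only: it called 5 members in Trex1-KO against WT, in both antagonists against Trex1-KO and in SN-011 against WT, 4 in H151 against WT (Herc6 added, adjusted p = 0.0382 by edgeR) and 0 between the antagonists, where calls over all genes went from 23 to 44. Under the block Trim25 was called with H151 (adjusted p = 0.0328) and with SN-011 (0.0238), each against Trex1-KO, and Usp25 with SN-011 (0.0479).

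Over all genes, calls moved by more than 1.5 times in some refits. With no filter beyond 1 count they went from 325 to 525 (H151 against Trex1-KO), from 340 to 679 (SN-011 against Trex1-KO) and from 23 to 266 (SN-011 against H151); the last was 38 with DESeq2, 84 with the exact test and between 2 and 291 with 1 library left out. The lowest counts with 1 library left out were 1556 in Trex1-KO against WT (2390 with all libraries), 131 in SN-011 against Trex1-KO (340), 971 in H151 against WT (1726) and 909 in SN-011 against WT (1714). Total counts moved the genes called higher from 990 to 715 of 1713 (H151 against WT) and from 902 to 703 of 1745 (SN-011 against WT). The causes were not tested.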
